A study of Mus musculus with 36 samples.

Results

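The 6 libraries described here are the day 5 end point of neurobasal differentiation in *Tet1* knockout (KO) and wild type (WT) cells, chosen by their labels from the 36 libraries of the series: 3 KO and 3 WT. *Tet1* KO libraries came from mouse embryonic stem cells (ESCs) of lines KO1 and KO15, and WT libraries from lines WT7 and WT34. All of these lines are male, come from (B6 × 129S6)F1-Tet1tm1Koh blastocysts, and were grown on fibroblast feeders with serum before the feeders were removed. They are 2 littermate pairs of KO and WT lines, and the labels do not say which lines form a pair. In both genotypes the cells were plated without serum in N2B27 medium, received bFGF until day 3, and were then kept without it until day 5, with no signalling inhibitor. In experiment 1 the KO libraries came from KO1 and KO15 and the WT libraries from WT7 and WT34, and in experiment 2, a daily time course, day 5 gave 1 KO1 and 1 WT7 library used here. KO1 and WT7 were therefore differentiated on 2 occasions and each genotype rests on 2 lines, so n counts libraries, and the p-values measure the spread between these libraries. Polyadenylated RNA was sequenced, and levels are given as CPM, the count of a gene scaled to the total of its library, with a correction between libraries (TMM). Per-library values are listed for KO1 and KO15 of experiment 1 and KO1 of experiment 2, and then for WT7 and WT34 of experiment 1 and WT7 of experiment 2.

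TET1 is a dioxygenase that oxidises 5-methylcytosine in DNA at CpG dinucleotides, a step towards demethylation, and it also has functions that do not need its catalysis. In the embryo the epiblast gives rise to neuroectoderm at its anterior side, where Wnt, Nodal and BMP signals are kept low, and to mesoderm and definitive endoderm through the primitive streak, where these signals are high. Under the conditions used here ESCs are expected to become anterior neural progenitor cells (antNPCs) that carry SOX1 and PAX6. The comparison asks how the day 5 culture differs when TET1 is missing.

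The total count was 10139521 to 16919391 per library, and 24017 to 26123 genes had a count. After a filter on low counts 16276 genes were tested, and a gene is said to have risen or fallen in KO cells where the adjusted p of the edgeR quasi-likelihood test was under 0.05 and the log2 fold change (KO over WT) was beyond 1 in size. By that rule 2005 genes changed (12.3% of those tested), with 1056 higher (6.49%) and 949 lower (5.83%) in KO cells, and the 3 KO libraries were separate from the 3 WT libraries in 1873 of them. Over all tested genes the libraries were separate in 35.3%, and the median log2 fold change was -0.0029. The first principal component, with 53.9% of the variance, put the KO libraries at -51.3, -43.7 and -69.2 and the WT libraries at 68.3, 69.4 and 26.4. WT7 of experiment 2 thus stood apart from the other WT libraries on the side of KO. It was the highest WT library for 70.4% of the genes that rose and 39.1% of those that fell, against 44.0% of all tested genes. Without it 2233 genes changed, and without the KO1 library of experiment 2, which also leaves experiment 1 alone to carry the comparison, 2235. In bulk RNA a lower value can mean fewer cells of a type or less RNA per cell, and these cannot be told apart. Bracketed pairs of values below are the log2 fold change and its standard error (SE). The gene lists below were chosen with earlier results of these data known. Their shares beside those of all tested genes are therefore descriptions and not tests.

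**Figure D1:**
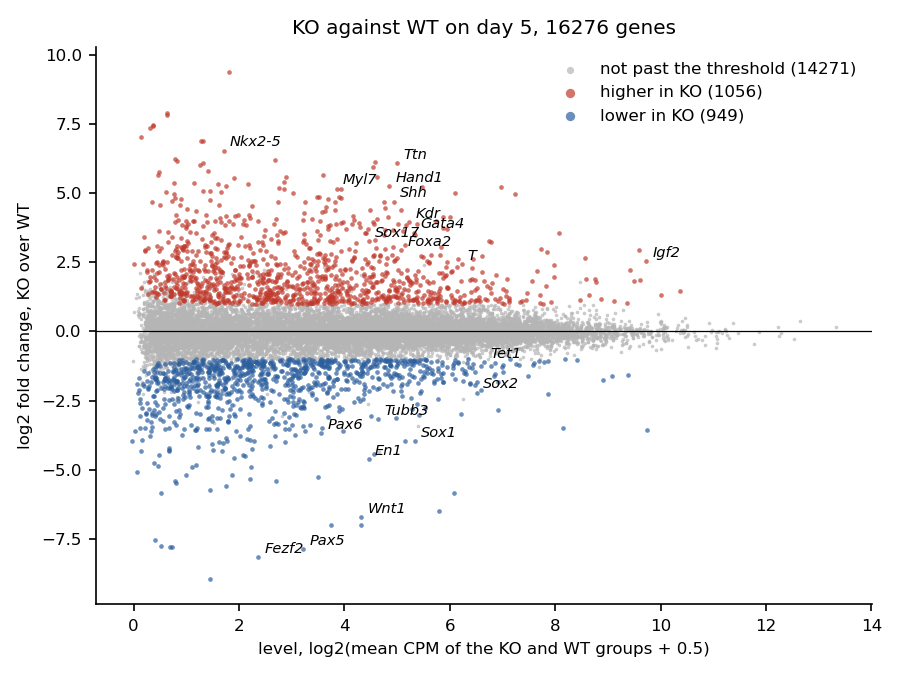
Log2 fold change between KO and WT on day 5 (y axis) against the level of the gene, log2 of the mean CPM of both groups plus 0.5 (x axis). Each point is 1 of 16276 tested genes. The 1056 genes higher in KO lie above 1 and the 949 lower ones below -1, and labelled genes include *Nkx2-5* and *Ttn* at the top and *Fezf2* and *Pax5* at the bottom.

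*Tet1* (ENSMUSG00000047146.17, mm10 chromosome 10, 62804570 to 62908996, minus strand) was at 48.6, 57.2 and 84.8 CPM in KO libraries, against 109.9, 118 and 185 CPM in WT libraries (log2 fold change -1.11, SE 0.08, adjusted p = 0.000111). Each KO library was below each WT library, and in both genotypes the library of experiment 2 was the highest. The deposited TPM values, which correct for the length of the transcripts used, did not separate the groups: the mean was 19.15 TPM in KO, against 19.92 TPM in WT, and on the log2(TPM + 1) scale the difference was -0.06 (limma adjusted p = 0.771). Transcript thus remained in KO cells, and the RNA level is only a partial check of the label. Of the other 8 genes of the TET and DNMT list none passed both thresholds. *Tet3* averaged 161 ± 8.51 CPM in KO, against 115 ± 15.8 CPM in WT (SD, n = 3 each), with a log2 fold change of 0.50, SE 0.07 and no overlap between the groups. *Dnmt3b*, a de novo methyltransferase of the epiblast, was lower without reaching the fold threshold (log2 fold change -0.62, SE 0.05, adjusted p = 0.000258), as was the maintenance cofactor *Uhrf1* (-0.45, SE 0.08), and *Dnmt1* and *Dnmt3a* lay at -0.09 and 0.09.

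Neural progenitor genes were lower in KO cells. Of 21 tested neural progenitor factors 14 fell and none rose in KO cells (66.7% fell, against 5.83% of all tested genes), with a median log2 fold change of -1.99. *Sox1*, the earliest marker of the neural plate, was at 2.81, 5.88 and 5.07 CPM in KO libraries, against 50.6, 66.3 and 109 CPM in WT libraries (log2 fold change -3.96, SE 0.27, adjusted p = 0.000108). *Pax6*, a factor of the dorsal and anterior neural tube, was at 1.98, 1.27 and 1.72 CPM in KO, against 20.4, 23.9 and 18.5 CPM in WT (-3.66, SE 0.20). *Lhx5*, a forebrain factor, was at 0.342, 1.09 and 0.287 CPM in KO, against 13.1, 13.6 and 4.80 CPM in WT (-4.15, SE 0.36). For all 3 genes the highest KO library was below the lowest WT library. *Sox2*, shared by pluripotent and neural cells, was at 23.1, 27.6 and 49.6 CPM in KO, against 146, 162 and 136 CPM in WT (-2.21, SE 0.23), and KO1 of experiment 2 was the highest KO library. Its close relative *Sox3* (-2.61, SE 0.12), the zinc finger gene *Zic5* (-2.15, SE 0.12), the POU factor gene *Pou3f1* (-1.99, SE 0.13) and the Notch effectors *Hes5* (-3.42, SE 0.31) and *Hes3* (-5.20, SE 0.58) fell with them. *Cdh2*, which encodes the N-cadherin of neural and mesodermal cells, did not pass, with 154, 185 and 168 CPM in KO, against 102, 111 and 229 CPM in WT, and WT7 of experiment 2 was the highest library.

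Factors of the brain regions moved in both directions, with more that fell. Of 18 midbrain and hindbrain factors 10 fell and 3 rose (55.6% and 16.7%, against 5.83% and 6.49% of all tested genes). In experiment 1 alone (the fits without either library of experiment 2) 5 rose. *Wnt1*, the Wnt ligand of the midbrain and its boundary with the hindbrain, had 0.342, 0.121 and 0.669 CPM in KO libraries, against 25.2, 33.1 and 57.4 CPM in WT libraries (log2 fold change -6.72, SE 0.26, adjusted p = 3.19e-05). *En1*, which it maintains, had 1.51, 1.52 and 1.43 CPM in KO, against 22.2, 32.1 and 70.1 CPM in WT (-4.62, SE 0.30). *Pax5* was counted 2 times in the KO libraries together and 755 times in WT, a ratio of 0.00257 (95% counting interval 0.000311 to 0.00932). *Pax2* was at 2.19, 1.45 and 6.98 CPM in KO, against 9.54, 8.60 and 18.2 CPM in WT (-1.96, SE 0.26). In WT cells all 4 genes were highest in experiment 2. The 3 members that rose were the Iroquois genes *Irx1* (2.00, SE 0.25), *Irx3* (1.11, SE 0.08) and *Irx5* (1.67, SE 0.15), homeobox genes that are also used in mesoderm and heart. *Irx3*, the most abundant, was at 85.4, 90.3 and 116 CPM in KO, against 36.2, 39.7 and 61.3 CPM in WT. Of 13 forebrain and eye field factors 5 fell (38.5%) and none rose, with a median log2 fold change of -0.33, and 1 rose in experiment 1 alone. A further 10 were under the filter on low counts. The summed level of the tested members was not lower in KO, at 158 to 387 CPM, against 177 to 199 CPM in WT. *Fezf2*, a forebrain zinc finger gene, had 1 count in KO and 367 in WT (ratio 0.00264, 95% counting interval 6.68e-05 to 0.0148). *Wnt8b* (-5.34, SE 0.61) and *Nr2f1* (-2.69, SE 0.41) fell as well. *Six3*, an anterior forebrain and eye field factor, was higher in every KO library without passing (log2 fold change 1.57, SE 0.56, adjusted p = 0.0658), at 11.6, 10.8 and 49.5 CPM in KO, against 7.08, 7.59 and 4.19 CPM in WT, where KO1 of experiment 2 was the highest. Its value was 0.61 in experiment 1 alone.

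The promoters of *Sox1* and *Wnt1* are shown because both genes fell steeply and because TET1 acts at CpG dinucleotides, which are in capitals. Each runs from 250 bases before to 50 bases after the start of the gene in RefSeq (build GRCm38.p6), written 5′ to 3′ on the strand of the gene. That of *Sox1* lies at chr8:12395269-12395568 on the plus strand and holds 37 CpG, and that of *Wnt1* lies at chr15:98789607-98789906 on the plus strand and holds 26. Both were picked and do not stand for the genes that fell. The median was 16 CpG in promoters of genes that fell and 14 in those of genes that rose, against 20 for all tested genes. Promoters were matched for 651 of 947 symbols that fell, 740 of 1054 that rose and 11094 of 16239 tested. Methylation of these sequences was not measured here.
Sox1: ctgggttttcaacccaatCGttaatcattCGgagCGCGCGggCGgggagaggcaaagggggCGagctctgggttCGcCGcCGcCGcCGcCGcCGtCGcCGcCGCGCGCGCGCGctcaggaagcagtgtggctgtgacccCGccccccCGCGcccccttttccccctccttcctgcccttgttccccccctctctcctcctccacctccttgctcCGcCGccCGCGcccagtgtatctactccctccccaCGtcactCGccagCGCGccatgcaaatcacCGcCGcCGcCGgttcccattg
Wnt1: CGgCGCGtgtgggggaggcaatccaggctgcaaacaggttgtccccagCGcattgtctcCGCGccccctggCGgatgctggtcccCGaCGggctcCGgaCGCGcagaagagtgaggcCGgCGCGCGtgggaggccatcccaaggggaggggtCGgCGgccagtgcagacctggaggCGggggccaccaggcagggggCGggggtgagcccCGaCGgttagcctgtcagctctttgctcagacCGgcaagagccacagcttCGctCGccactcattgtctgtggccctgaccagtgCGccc

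Genes of differentiating neurons were also lower in KO cells. Of 30 tested neuronal genes 20 fell and none rose (66.7% fell, against 5.83% of all tested genes, median -1.90). *Tubb3*, the neuronal tubulin, was at 2.39, 5.88 and 6.50 CPM in KO libraries, against 43.02, 37.6 and 50.2 CPM in WT libraries (log2 fold change -3.16, SE 0.27, adjusted p = 0.000255). *Crmp1*, an adaptor of growth cone guidance, had 11.5, 20.3 and 17.7 CPM in KO, against 146, 137 and 109.6 CPM in WT (-2.98, SE 0.20). *Gap43*, a growth cone protein, had 2.26, 2.79 and 1.43 CPM in KO, against 14.1, 15.8 and 14.6 CPM in WT (-2.77, SE 0.21). *Stmn3* (-3.92, SE 0.31), which acts on microtubules, and the neuronal splicing factor *Rbfox3* (-3.55, SE 0.28) fell as well. The summed level of the list was 161 to 212 CPM in KO libraries, against 508 to 538 CPM in WT libraries, so the groups were well apart and the WT libraries close to each other. *Onecut2*, a factor of young neurons, did not pass (log2 fold change 0.49, SE 0.23, adjusted p = 0.145): at 3.42, 5.15 and 15.9 CPM in KO, against 3.85, 2.74 and 10.1 CPM in WT, it was higher in experiment 2 in both genotypes.

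Of 17 tested pluripotency genes 7 fell (41.2%, against 5.83% of all tested genes), none rose and 10 did not pass. The median log2 fold change was -0.27. In experiment 1 alone 2 members rose. *Pou5f1*, the core factor of pluripotency, which the epiblast keeps until late gastrulation, was at 44.4, 46.4 and 20.8 CPM in KO, against 160.1, 132 and 125 CPM in WT (log2 fold change -1.95, SE 0.18, adjusted p = 0.00032). *Pim2*, a kinase gene of the primed epiblast (-2.13, SE 0.14), *Utf1* (-2.09, SE 0.30) and *L1td1* (-1.70, SE 0.12) fell with it, and the libraries of all 4 were separate.

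**Figure D2:**
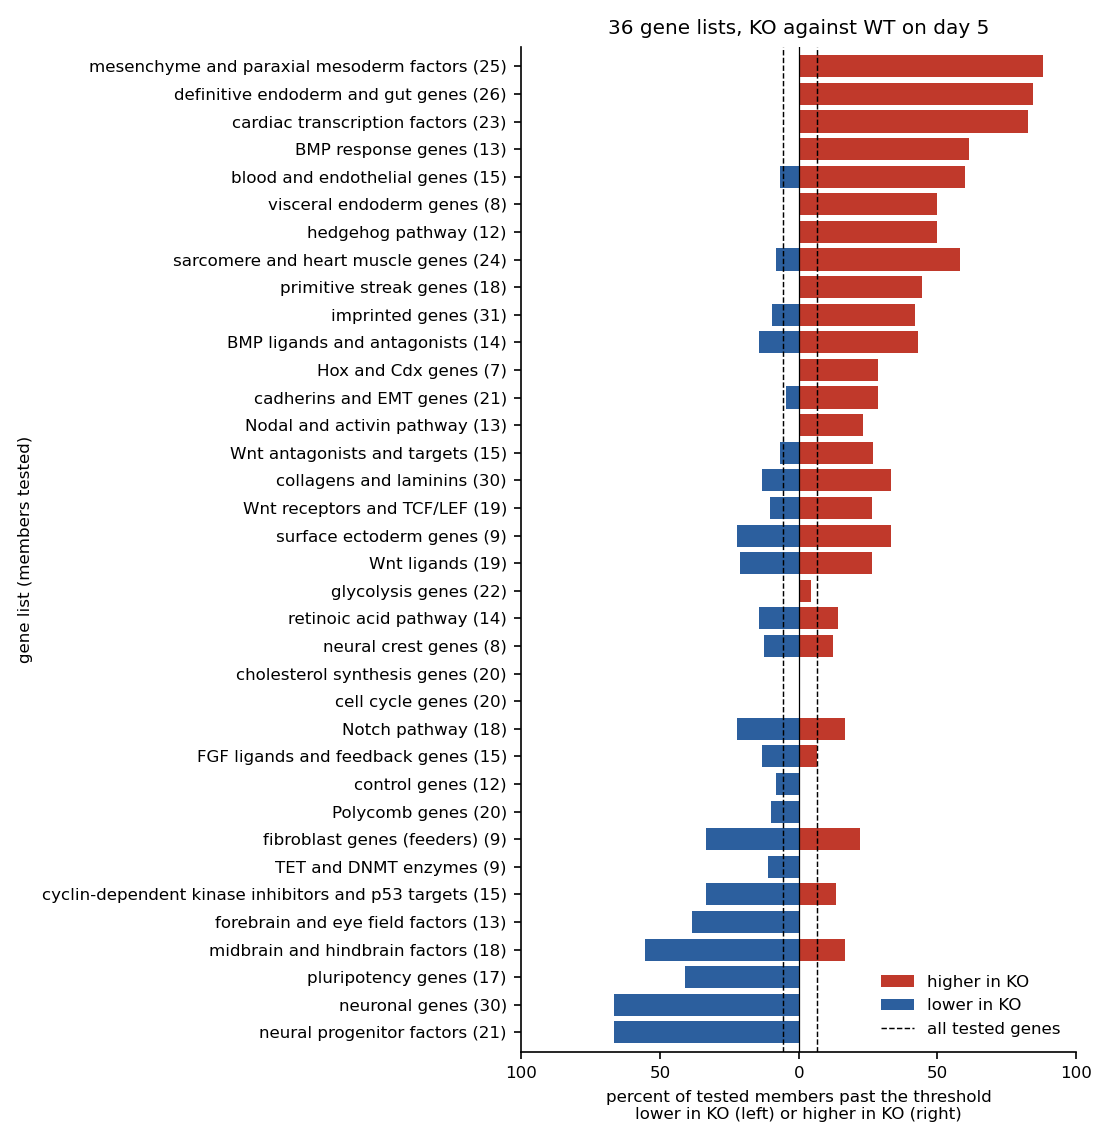
Percent of the tested members of 36 gene lists that were past the threshold on day 5, lower in KO to the left and higher in KO to the right, with the number tested in brackets. The dashed lines are the shares of all tested genes (5.83% lower, 6.49% higher). Lists of mesenchyme (88% higher), endoderm (84.6%) and heart factors (82.6%) reach furthest to the right, and neural progenitor and neuronal lists (66.7% lower) furthest to the left.

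In 21 combinations of list and direction no member passed by edgeR. Over these combinations 58 of 369 tested members moved in the named direction at an unadjusted p under 0.05, whatever the fold. Lists that enter in both directions are counted in the 369 once for each. Over all 16276 tested genes 5711 had an adjusted p under 0.05 by edgeR, in either direction and at any fold. DESeq2 put 3 members past the same thresholds and limma on log2(TPM + 1) none.

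Some primitive streak genes were higher in KO cells on day 5. Of 18 tested members 8 rose and none fell (44.4% rose, against 6.49% of all tested genes), but the count was 4 without WT7 and 3 without WT34 of experiment 1, 5 without KO1 or KO15 of experiment 1, and 12 in experiment 1 alone. Without WT34 *Apln* fell (-1.32, adjusted p = 0.0448). A streak list that the study drew from an embryo atlas was divided, with 6 of 38 markers higher and 9 lower. Its summed level was 1790 to 2191 CPM in KO, against 2664 to 3045 CPM in WT. *T*, the brachyury factor of the streak and notochord, was at 89.6, 114 and 142 CPM in KO libraries, against 8.54, 9.70 and 81.2 CPM in WT libraries (log2 fold change 2.44, SE 0.52, adjusted p = 0.0103), so WT7 of experiment 2 lay close to the lowest KO library. Without WT7 of experiment 1 its adjusted p was 0.0543, and without WT34 0.0558. *Eomes*, which specifies mesoderm and definitive endoderm, did not pass (log2 fold change 2.04, SE 0.75, adjusted p = 0.0722). It was high in the KO libraries of experiment 1 and not in that of experiment 2 (41.5, 45.2 and 8.41 CPM in KO, against 5.08, 3.68 and 12.9 CPM in WT), and in experiment 1 alone its log2 fold change was 3.30 (adjusted p = 4.26e-06). *Mixl1* had low counts and did not pass (1.39, SE 1.24, and 3.70 in experiment 1 alone, with an adjusted p of 0.00306). Among those that rose were *Gsc*, a factor of the anterior streak and its derivatives (3.11, SE 0.30), *Cer1*, a secreted antagonist of Nodal, BMP and Wnt, at 92.9, 84.1 and 129.8 CPM in KO, against 2.08, 1.25 and 35.8 CPM in WT (3.76, SE 0.70), the Nodal cofactor gene *Foxh1* (1.09, SE 0.13) and the peptide gene *Apela* (1.69, SE 0.17). In experiment 1 alone the value of *Cer1* was 5.72, and *Foxh1* dropped to 0.99, under the fold threshold, without WT34.

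Most definitive endoderm genes rose. Of 26 tested members 22 rose and none fell (84.6% rose, against 6.49% of all tested genes), with a median log2 fold change of 2.91. The count stayed between 20 and 22 whichever library was left out. *Sox17*, the defining factor of early endoderm, was at 40.6, 37.3 and 36.5 CPM in KO libraries, against 1.15, 2.35 and 11.3 CPM in WT libraries (log2 fold change 3.26, SE 0.54, adjusted p = 0.00383). *Foxa2*, the pioneer factor of endoderm, node and floor plate, had 47.3, 48.6 and 75.2 CPM in KO, against 3.62, 3.44 and 21.9 CPM in WT (2.93, SE 0.38). WT7 of experiment 2 was the highest WT library for both, yet below every KO library. *Spink1*, a protease inhibitor of the gut, was at 22.6, 15.3 and 14.4 CPM in KO, against 0.231, 0.313 and 1.51 CPM in WT (4.67, SE 0.52). *Prdm1*, a repressor expressed in endoderm and several other lineages, was at 49.7, 47.04 and 57.5 CPM in KO, against 1.69, 1.33 and 4.19 CPM in WT (4.47, SE 0.25). *Hhex*, a factor of foregut and liver, was even within each group, with 17.99, 17.3 and 18.5 CPM in KO, against 3.77, 2.66 and 3.64 CPM in WT (2.42, SE 0.16). The epithelial genes *Cldn6* (1.89, SE 0.07) and *Krt18* (1.89, SE 0.11) had smaller folds at high levels, *Krt18* averaging 681 ± 185 CPM in KO, against 179.9 ± 20.1 CPM in WT (SD, n = 3 each). *Cdh1*, the epithelial cadherin, was higher at 535, 502 and 444 CPM in KO, against 288, 294 and 188 CPM in WT, but its log2 fold change of 0.97 lay just under the threshold. It was 1.03 without KO15 and 1.01 without WT34.

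Visceral endoderm, an extraembryonic tissue that shares many genes with the gut, was checked by a list of its own. Of its members 8 were under the filter on low counts, and of the 8 tested 4 rose and none fell (50% rose, against 6.49% of all tested genes). The count of risen members was 2 without KO1 or WT7 of experiment 1. *Apob*, an apolipoprotein gene, was at 3.28, 1.33 and 4.01 CPM in KO, against 0.231, 0 and 0.343 CPM in WT (3.87, SE 0.68). *Cited1*, which encodes a transcriptional coregulator, was at 16.2, 14.7 and 12.6 CPM in KO, against 3.16, 4.07 and 5.35 CPM in WT (1.80, SE 0.22). *Cubn*, a receptor gene of absorptive epithelia, overlapped between the groups (13.2, 10.8 and 54.2 CPM in KO, against 4.69, 6.73 and 28.9 CPM in WT) and was at 0.91 without KO1 and 0.87 without WT7 of experiment 1. *Ttr* and *Afp*, abundant in mature visceral endoderm, were under the filter, with 48 and 2 counts over the KO libraries, against 8 and 1 over the WT libraries.

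Heart field factors had the highest median fold of the 36 lists. Of 23 cardiac transcription factors and field genes 19 rose and none fell (82.6% rose, against 6.49% of all tested genes). The median log2 fold change was 3.82, and the count was 18 or 19 whichever library was left out. *Nkx2-5*, an early factor of cardiac progenitors (chromosome 17, 26838664 to 26845009, minus strand), had 233 counts in KO libraries and 2 in WT, a ratio of 113 (95% counting interval 30.95 to 939). *Isl1*, a factor of the second heart field, was at 45.1, 36.7 and 52.2 CPM in KO libraries, against 0.231, 0.235 and 1.72 CPM in WT libraries (log2 fold change 5.96, SE 0.39, adjusted p = 9.69e-05). *Gata4*, a zinc finger factor of heart and endoderm, had 103, 77.4 and 38.4 CPM in KO, against 2.69, 3.44 and 12.7 CPM in WT (3.58, SE 0.63). Its relative *Gata6* had 82.6, 81.6 and 25.3 CPM in KO, against 2.54, 2.66 and 9.26 CPM in WT (3.63, SE 0.66). Both were lowest among KO libraries in experiment 2 and highest among WT libraries in the same experiment. *Hand2*, of the right ventricle and second heart field, had 29.01, 21.3 and 18.2 CPM in KO, against 0, 0 and 1.30 CPM in WT (5.64, SE 0.74), with all 19 WT counts in WT7 of experiment 2, so that the fitted value without that library has no WT count behind it. *Hand1*, of extraembryonic and lateral mesoderm and the left ventricle, was uneven among the KO libraries, with 85.5, 71.3 and 9.75 CPM in KO, against 0.462, 0.391 and 2.33 CPM in WT (5.27, SE 0.87). *Mef2c*, a factor of muscle differentiation, was at 50.7, 36.98 and 37.3 CPM in KO, against 0.616, 0.939 and 5.01 CPM in WT (4.37, SE 0.53). *Gata5* was at 15.7, 10.7 and 8.51 CPM in KO, against 0, 0.0782 and 0.343 CPM in WT (6.18, SE 0.59). *Tbx5*, of the first heart field, was at 3.22, 1.88 and 2.68 CPM in KO, against 0.231, 0.391 and 1.10 CPM in WT (2.27, SE 0.49). Without WT34 the adjusted p of *Tbx5* was 0.051. The other members named by p were *Smyd1* (3.98, SE 0.24), a methyltransferase of muscle, *Tbx1* (3.82, SE 0.25), of the pharyngeal mesoderm, and *Tbx2* (5.34, SE 0.38).

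Contractile genes of the heart were mostly higher as well. Of 24 sarcomere and heart muscle genes 14 rose and 2 fell (58.3% and 8.33%, against 6.49% and 5.83% of all tested genes). A further 9 were under the filter. *Ttn*, the giant elastic filament of the sarcomere, was at 98.05, 46.7 and 41.7 CPM in KO libraries, against 0.770, 1.88 and 0.206 CPM in WT libraries (log2 fold change 6.08, SE 0.46, adjusted p = 0.000158). *Myl7*, the atrial light chain, had 41.3, 24.3 and 15.9 CPM in KO, against 0.308, 0.469 and 1.30 CPM in WT (5.16, SE 0.52). *Tnnt2*, the cardiac troponin T, had 33.3, 18.9 and 17.5 CPM in KO, against 0.923, 1.10 and 0.961 CPM in WT (4.51, SE 0.30). In each of these KO1 of experiment 1 was the highest library. The heavy chain gene *Myh7* was at 117, 81.3 and 142 CPM in KO, against 8.16, 8.53 and 9.06 CPM in WT (3.71, SE 0.17), and here KO1 of experiment 2 was the highest. The other heavy chain gene, *Myh6*, was at 27.6, 15.2 and 22.3 CPM in KO, against 1.08, 1.02 and 1.17 CPM in WT (4.30, SE 0.29). *Actc1*, cardiac actin, changed less, with 52.4, 44.1 and 14.4 CPM in KO, against 12.1, 13.4 and 5.28 CPM in WT (1.79, SE 0.14). The members that fell were *Acta1*, skeletal actin (-2.27, SE 0.13), and *Tagln*, a smooth muscle protein that many cultured cells carry (-1.49, SE 0.11). Late chamber genes were scarce: *Nppa* and *Pln* were under the filter, with 3 and 1 counts over the KO libraries, against 1 and 0 over the WT libraries, and *Myl2*, the ventricular light chain, had 13 in KO, against 0 in WT. *Pgam2*, the muscle phosphoglycerate mutase, was among the genes with the largest folds (5.57, SE 0.37).

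The promoters of *Myl7* and *Actc1* are shown because both rose and both carry a CArG box, the sequence bound by serum response factor in muscle genes, which is the long run of capitals. CpG dinucleotides are in capitals as above. The RefSeq promoter of *Myl7* (build GRCm38.p6) is chr11:5898733-5899032 on the minus strand, with 5 CpG and the box 61 to 52 bases before the start. That of *Actc1* is chr2:114052826-114053125 on the minus strand, with 7 CpG and the box 47 to 38 bases before the start.
Myl7: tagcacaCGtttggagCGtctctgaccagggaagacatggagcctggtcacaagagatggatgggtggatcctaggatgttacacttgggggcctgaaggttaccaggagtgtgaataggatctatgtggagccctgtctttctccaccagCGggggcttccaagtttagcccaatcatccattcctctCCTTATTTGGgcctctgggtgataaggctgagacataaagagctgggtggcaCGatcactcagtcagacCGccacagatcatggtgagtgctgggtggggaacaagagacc
Actc1: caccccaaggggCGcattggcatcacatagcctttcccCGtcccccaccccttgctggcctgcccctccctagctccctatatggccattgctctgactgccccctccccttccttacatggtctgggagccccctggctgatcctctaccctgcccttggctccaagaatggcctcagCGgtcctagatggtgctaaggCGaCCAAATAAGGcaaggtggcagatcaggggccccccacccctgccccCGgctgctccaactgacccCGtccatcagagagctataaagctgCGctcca

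The pattern of the CArG box is the same on both strands, so 1 search covered both. The table of promoters held all 14 of the sarcomere and heart muscle genes that rose, with 18 promoters, and 6 of these carried a CArG box (33.3%), against 1.63% of all 32851. Among the 6 are overlapping promoters of *Ldb3* (chr14:34588558-34588857 and chr14:34588632-34588931). Promoters of the same gene are not independent, and the same box can be counted again. *Acta1*, which fell, also carries the box. Over the 22 of 24 tested members that were matched, the box was in 8 of 29 promoters. For the neural progenitor list the table held 12 of 21 genes, under 80%, so the same share is not given for it.

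**Figure D3:**
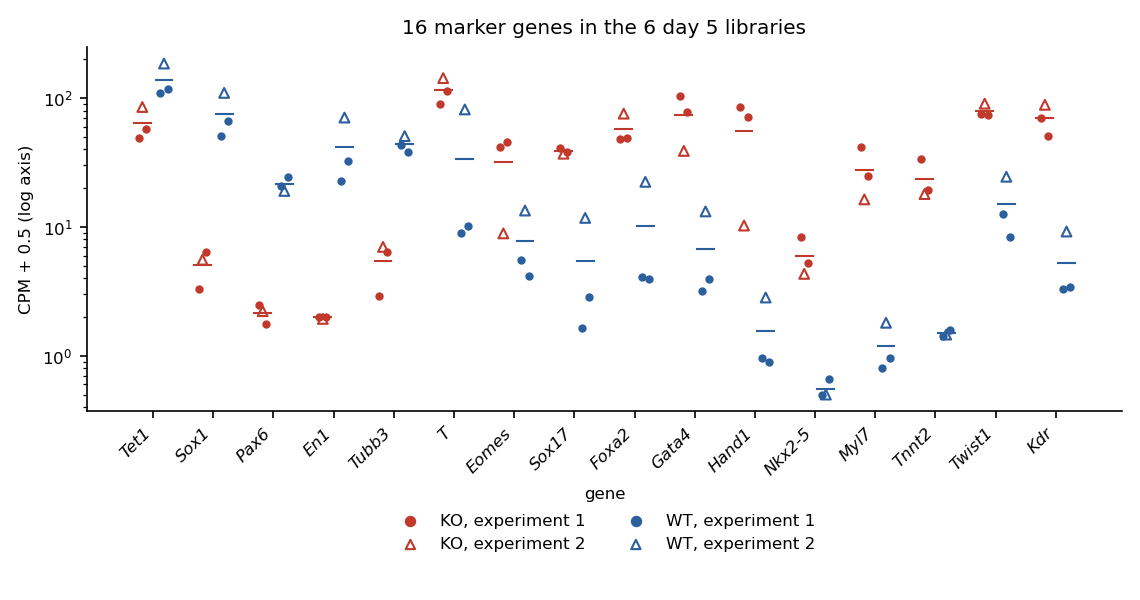
CPM plus 0.5 on a log axis for 16 marker genes in the 6 libraries, KO left of WT for each gene. Filled circles are experiment 1, open triangles experiment 2 and bars the group means. Neural genes such as *Pax6* and *En1* sit lower in every KO library, and *Hand1* and *Eomes* show the wide gap between the KO libraries of the 2 experiments.

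Mesenchymal and paraxial mesoderm factors had the highest share of risen members among the 36 lists. Of 25 tested 22 rose and none fell (88% rose, against 6.49% of all tested genes, median 2.78). The count was 18 to 22 with a library left out. *Twist1*, a regulator of mesenchyme, was at 75.4, 73.05 and 90.03 CPM in KO libraries, against 12.005, 7.82 and 24.01 CPM in WT libraries (log2 fold change 2.54, SE 0.23, adjusted p = 0.000317). *Pdgfra*, the receptor of early mesoderm, had 112, 111 and 218 CPM in KO, against 14.6, 14.9 and 48.6 CPM in WT (2.63, SE 0.15). *Pdgfrb*, of mural cells, had 41.8, 42.8 and 69.001 CPM in KO, against 4.85, 6.18 and 12.2 CPM in WT (2.77, SE 0.14). *Foxc2*, of somites and head mesenchyme, was at 19.6, 32.1 and 52.3 CPM in KO, against 0.616, 0.391 and 8.65 CPM in WT (3.90, SE 0.56). These genes were highest in experiment 2 in both genotypes. *Alx1*, a factor of cranial mesenchyme, was another, with 13.8, 13.5 and 58.7 CPM in KO, against 0.385, 0.156 and 2.81 CPM in WT (4.81, SE 0.27). *Eya1*, of pharyngeal and muscle progenitors (2.11, SE 0.10), *Prrx1*, of limb and head mesenchyme (3.53, SE 0.18), and *Snai2*, a repressor of epithelial genes (2.32, SE 0.14), rose with them. *Rgs5*, a pericyte gene, was among the largest folds, with 66.8, 42.3 and 29.9 CPM in KO, against 0, 0.391 and 1.44 CPM in WT (6.11, SE 0.63).

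Of 15 blood and endothelial genes 9 rose and 1 fell (60% and 6.67%, against 6.49% and 5.83% of all tested genes). *Kdr*, the VEGF receptor of early mesoderm and endothelium, was at 70.1, 50.01 and 88.2 CPM in KO libraries, against 2.77, 2.89 and 8.71 CPM in WT libraries (log2 fold change 3.95, SE 0.25, adjusted p = 8.86e-05). Factors of blood formation rose at low levels. *Runx1* was at 11.2, 10.5 and 6.59 CPM in KO, against 2.92, 2.50 and 2.40 CPM in WT (1.82, SE 0.20). *Tal1* was at 3.76, 2.55 and 4.21 CPM in KO, against 0.0770, 0.0782 and 1.10 CPM in WT (3.34, SE 0.64, or 5.18 in experiment 1 alone). *Gata2* was at 18.5, 20.7 and 4.87 CPM in KO, against 4.93, 3.99 and 0.137 CPM in WT (2.50, SE 0.37), with the KO library of experiment 2 below 1 WT library of experiment 1. *Sox7* passed (1.33, SE 0.37) but lost the call without any of 5 of the 6 libraries, at adjusted p-values of up to 0.133. *Plvap*, of fenestrated endothelium, fell (-1.66, SE 0.36). The embryonic haemoglobin genes *Hbb-y* and *Hbb-bh1* had no count in the 6 libraries, and *Cdh5*, the endothelial cadherin, had 40 counts over the KO libraries, against 15 over the WT libraries.

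Ligands of the Wnt pathway moved in both directions. Of 19 Wnt and R-spondin genes 5 rose and 4 fell (26.3% and 21.1%, against 6.49% and 5.83% of all tested genes). Those that fell were *Wnt1*, *Wnt8b*, *Wnt7b* (-2.20, SE 0.43) and *Rspo2* (-3.95, SE 0.52), which are expressed in the neural tube among other places. *Rspo1* rose (7.39, 8.31 and 24.8 CPM in KO, against 2.31, 2.89 and 3.84 CPM in WT, 2.00, SE 0.26), as did *Wnt5a* (1.85, SE 0.33) and *Wnt11* (1.87, SE 0.38), which act mainly without β-catenin, and *Wnt2* (5.33, SE 0.83) and *Wnt16* (3.95, SE 0.56). Among 19 receptors and TCF/LEF factors 5 rose and 2 fell (26.3% and 10.5%). *Fzd5* (184, 159 and 221 CPM in KO, against 53.3, 50.8 and 34.3 CPM in WT, 2.03, SE 0.19), *Fzd4* (2.45, SE 0.18), *Fzd1* (1.25, SE 0.09), the stem cell receptor *Lgr5* (3.87, SE 0.43) and the nuclear effector *Tcf7l2* (1.62, SE 0.11) were higher. *Fzd9* (-2.40, SE 0.43) and *Fzd10* (-1.27, SE 0.32) were lower, and *Fzd10* was at -0.81 in experiment 1 alone and at an adjusted p of 0.0694 without KO1 of experiment 1. Of 15 antagonists and targets 4 rose and 1 fell (26.7% and 6.67%), or 2 fell in experiment 1 alone and without KO15. The antagonists *Dkk1* (72.1, 60.7 and 46.1 CPM in KO, against 1.92, 2.11 and 9.26 CPM in WT, 3.87, SE 0.51), *Frzb* (1.84, SE 0.10), *Sfrp5* (3.10, SE 0.46) and *Cer1* rose and *Sfrp2*, expressed in neural progenitors, fell (8.69, 11.2 and 12.5 CPM in KO, against 46.8, 45.8 and 53.2 CPM in WT, -2.17, SE 0.12).

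BMP signalling genes rose in ligands and targets. Of 14 ligands and antagonists 6 rose and 2 fell (42.9% and 14.3%, against 6.49% and 5.83% of all tested genes). The ligand gene *Bmp2* was at 82.8, 77.1 and 39.7 CPM in KO libraries, against 3.23, 3.05 and 7.07 CPM in WT libraries (log2 fold change 3.85, SE 0.41, adjusted p = 0.00059). *Bmp5*, another ligand gene, was at 71.5, 66.2 and 50.7 CPM in KO, against 0.923, 1.41 and 7.68 CPM in WT (4.38, SE 0.57). The extracellular regulator *Bmper* was at 31.4, 23.3 and 17.3 CPM in KO, against 1.15, 1.41 and 2.33 CPM in WT (3.84, SE 0.32). For these 3 genes KO1 of experiment 2 was the lowest KO library and WT7 of experiment 2 the highest WT library. The antagonists *Nog* (1.91, SE 0.23) and *Chrd* (2.26, SE 0.32) rose too. *Gdf7*, the roof plate ligand, had no count in KO and 94 in WT, which is at least 32.3-fold lower with 3 counts over the KO group as the floor. *Chrdl1*, a neural BMP antagonist, also fell (-2.42, SE 0.22). Of 13 genes that respond to BMP 8 rose and none fell (61.5% rose). Among those that rose were the inhibitory *Smad7* (46.05, 44.7 and 17.4 CPM in KO, against 18.2, 20.3 and 6.59 CPM in WT, 1.28, SE 0.10) and *Smad6* (3.00, SE 0.52) and the decoy receptor *Bambi* (75.7, 61.1 and 23.7 CPM in KO, against 9.08, 10.9 and 11.9 CPM in WT, 2.20, SE 0.35). *Msx2* (66.5, 48.01 and 4.59 CPM in KO, against 5.85, 7.59 and 4.87 CPM in WT, 2.29, SE 0.57) and *Tbx3* (68.97, 58.9 and 6.12 CPM in KO, against 7.77, 7.04 and 2.47 CPM in WT, 2.72, SE 0.31) rose with overlapping libraries, and both were lowest in experiment 2 in each genotype. *Msx2* lost its call without any 1 library of experiment 1, at adjusted p-values of 0.0625 to 0.107. The summed level of the list was 934, 803 and 332 CPM in KO libraries, against 423, 409 and 183 CPM in WT libraries, so the KO library of experiment 2 was below both WT libraries of experiment 1 and above its own WT library.

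Hedgehog pathway genes were higher from ligand to targets. Of 12 tested members 6 rose and none fell (50% rose, against 6.49% of all tested genes). *Shh*, the ligand of notochord, floor plate and gut, was at 33.7, 47.04 and 92.3 CPM in KO libraries, against 0.462, 0.469 and 7.68 CPM in WT libraries (log2 fold change 4.69, SE 0.48, adjusted p = 0.000514). Its receptor and target *Ptch1* had 203, 249 and 515 CPM in KO, against 37.2, 46.9 and 158 CPM in WT (2.17, SE 0.17). The target and effector *Gli1* had 31.1, 33.04 and 52.2 CPM in KO, against 0.539, 1.33 and 10.2 CPM in WT (3.69, SE 0.52). The antagonist *Hhip* had 12.7, 13.2 and 22.8 CPM in KO, against 2.001, 0.626 and 2.33 CPM in WT (3.29, SE 0.31). Experiment 2 gave the highest library in both genotypes for these 4 genes, and the groups did not overlap. The ligand gene *Ihh* rose too (1.34, SE 0.38). *Ihh* lost its call in each of the 6 fits that left out a library, at adjusted p-values of 0.0599 to 0.121, and 5 members rose in each.

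In the remaining pathways most members did not pass. Of 13 genes of the Nodal pathway 3 rose and none fell (23.1% rose, against 6.49% of all tested genes). Those that rose included *Foxh1* and the coreceptor *Cfc1* (40.6, 34.8 and 12.2 CPM in KO, against 0.462, 0.469 and 6.24 CPM in WT, 3.71, SE 0.93). *Cfc1* lost its call without any 1 library of experiment 1, with adjusted p-values of 0.0533 to 0.0881, and was at 6.31 in experiment 1 alone, and the count of the list was 1 without WT34. Of 15 FGF ligands and feedback genes 1 rose, *Fgf10* of the heart field and gut mesenchyme (16.9, 19.6 and 21.4 CPM in KO, against 1.31, 0.548 and 4.94 CPM in WT, 3.30, SE 0.45), and 2 fell, the neural *Fgf15* (-2.74, SE 0.27) and the pluripotency ligand *Fgf4* (-1.88, SE 0.39). The share of FGF genes that rose, 6.67%, was near the 6.49% of all tested genes. In experiment 1 alone 6 of the FGF genes rose. Of 18 Notch pathway genes 11 did not pass, 4 fell (22.2%, against 5.83% of all tested genes) and 3 rose (16.7%). Those that fell were the neural effectors *Hes3* and *Hes5* and the ligands *Dll1* (-1.58, SE 0.31) and *Jag2* (-1.20, SE 0.11). The mesodermal effectors *Hey1* (1.32, SE 0.26), *Hey2* (1.87, SE 0.19) and *Heyl* (2.22, SE 0.51) rose. *Heyl* lost its call without any 1 library of experiment 1, at adjusted p-values of 0.0614 to 0.0759. In the retinoic acid pathway *Rarb*, a receptor and target, rose (13.3, 12.6 and 25.04 CPM in KO, against 0.462, 0.391 and 1.92 CPM in WT, 4.29, SE 0.27) with the degrading enzyme *Cyp26a1* (2.18, SE 0.14), and the binding protein *Crabp2* (17.2, 16.7 and 16.2 CPM in KO, against 78.8, 89.95 and 107 CPM in WT, -2.44, SE 0.11) and *Cyp26c1* (-3.29, SE 0.47) fell. Of 14 tested members of this pathway 2 rose and 2 fell (14.3% each), and 4 rose in experiment 1 alone.

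Matrix and adhesion genes moved in both directions. Of 30 collagen and laminin genes 10 rose and 4 fell (33.3% and 13.3%, against 6.49% and 5.83% of all tested genes). *Lama2*, a laminin chain of muscle basement membrane, was at 11.5, 10.1 and 18.2 CPM in KO, against 0.154, 0.156 and 0.618 CPM in WT (5.41, SE 0.29). *Col23a1*, a transmembrane collagen, was at 80.2, 90.4 and 188 CPM in KO, against 2.08, 3.52 and 19.4 CPM in WT (4.13, SE 0.33). The cartilage and notochord collagen *Col2a1* was at 159, 149.9 and 369.8 CPM in KO, against 67.2, 80.5 and 160.1 CPM in WT (1.11, SE 0.08). *Col1a2* (11.4, 11.2 and 21.2 CPM in KO, against 48.6, 52.5 and 55.6 CPM in WT, -1.90, SE 0.16), *Col5a2* (-1.98, SE 0.40) and *Col18a1* (-1.03, SE 0.09) fell, and *Col18a1* was at -0.96 without KO15 and -0.99 without WT34. Of 21 cadherins and genes of the epithelial to mesenchymal transition 6 rose, with *Cdh13* at 1.14, SE 0.11 and *Cdh11*, a mesenchymal cadherin, at 65.1, 78.4 and 207 CPM in KO, against 23.8, 26.4 and 40.4 CPM in WT (1.81, SE 0.18), and 1 fell, *Cdh6* (-1.06, SE 0.20), which was at -0.75 in experiment 1 alone. *Fn1*, fibronectin, was among the most abundant, with 1320, 1506 and 1530 CPM in KO, against 458, 489.6 and 855 CPM in WT (1.33, SE 0.15). Since the lines had been grown on feeders, a list of fibroblast genes was counted as well. Of 9 tested 2 rose and 3 fell (22.2% and 33.3%). Its summed level was 137 to 168 CPM in KO libraries, against 163 to 188 CPM in WT libraries. *Thy1* (-2.98, SE 0.30) was lower in KO, *Postn* (1.88, SE 0.34) was higher, and *Lum* had 138 counts in KO and 1 in WT (ratio 134, 95% counting interval 23.6 to 5328).

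Imprinted genes, expressed from 1 parental allele under the control of DNA methylation, moved in both directions. Of 31 tested 13 rose and 3 fell (41.9% and 9.68%, against 6.49% and 5.83% of all tested genes). *Igf2*, the fetal growth factor, was at 1288, 1137 and 1906 CPM in KO libraries, against 209, 249.9 and 275 CPM in WT libraries (log2 fold change 2.53, SE 0.12, adjusted p = 4.89e-05). *H19*, its neighbour with the opposite parental expression, was at 348, 277 and 599 CPM in KO, against 40.7, 72.4 and 46.5 CPM in WT (2.87, SE 0.31). *Igf2r*, the receptor that clears IGF2, was at 674, 500.4 and 527 CPM in KO, against 223, 231 and 235 CPM in WT (1.30, SE 0.11). The antisense RNA *Airn* from the same locus was at 16.8, 15.7 and 13.9 CPM in KO, against 4.85, 4.07 and 5.83 CPM in WT (1.65, SE 0.18). *Mest* (299, 299.8 and 356 CPM in KO, against 827, 664 and 1557 CPM in WT, -1.59, SE 0.17), *Impact* (-1.22, SE 0.13) and *Peg13* (-1.01, SE 0.18) fell, and *Peg13* was at -0.89 without KO1 and -0.97 without WT7 of experiment 1. For *Igf2* and *H19* the lowest KO library was above the highest WT library.

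None of 20 cell cycle genes and none of 20 cholesterol synthesis genes passed by edgeR, DESeq2 or limma. Their medians were -0.33 and -0.27, and at an unadjusted p under 0.05, whatever the fold, 17 cell cycle genes were lower and 1 higher, and 12 cholesterol genes were lower. Over all 16276 tested genes 5711 had an adjusted p under 0.05 by edgeR, but in either direction, so these shares are not alike. Every KO library was below every WT library in 12 of 20 cell cycle genes and 8 of 20 cholesterol genes. Over all tested genes that held for 18%. The summed level of the cell cycle list was 4840 to 5339 CPM in KO, against 6081 to 6299 CPM in WT. For the cholesterol list it was 3036 to 3926 CPM in KO, against 3968 to 4657 CPM in WT. Of 22 glycolysis genes 1 rose, the lactate carrier *Slc16a1* (1355, 1262 and 1045 CPM in KO, against 324, 300.4 and 389 CPM in WT, 1.85, SE 0.13). That is 4.55% of the list, against 6.49% of all tested genes. Of 20 Polycomb genes 2 fell, *Cbx7* (-1.16, SE 0.08) and *Phf19* (-1.97, SE 0.22), and of 12 control genes 1 fell, *B2m*, the light chain of MHC class I (29.6, 24.3 and 18.8 CPM in KO, against 98.96, 106 and 44.4 CPM in WT, -1.72, SE 0.15). These are 10% and 8.33% of the lists, against 5.83% of all tested genes that fell. Of 15 kinase inhibitors and p53 targets 5 fell (33.3%), 2 rose (13.3%) and 8 did not pass. Those that fell included *Cdkn1a*, the p21 inhibitor (87.7, 88.99 and 21.7 CPM in KO, against 216, 182 and 57.8 CPM in WT, -1.24, SE 0.09), *Eda2r* (-1.53, SE 0.15) and *Sesn2* (-1.15, SE 0.11). These 3 were lowest in experiment 2 in both genotypes. *Ccng1* (-1.01, SE 0.07) was at -0.94 without WT7 of experiment 1, where 3 members fell, and at -0.99 without KO1 and -0.99 without KO15. *Cdkn2a* rose (4.31, 3.27 and 4.21 CPM in KO, against 0.847, 0.782 and 1.10 CPM in WT, 2.11, SE 0.28), and *Cdkn2b* (1.10, SE 0.35) lost its call with any 1 library left out, at adjusted p-values of 0.0668 to 0.171. Of 42 Hox and Cdx genes 35 were under the filter. *Hoxb2* (14.8, 16.4 and 4.21 CPM in KO, against 0.154, 0.235 and 2.47 CPM in WT, 3.62, SE 0.96) and *Hoxb3* (3.49, 3.58 and 1.24 CPM in KO, against 0.0770, 0 and 0.755 CPM in WT, 3.27, SE 0.95), of the hindbrain and pharyngeal region, rose, but neither passed without any 1 library of experiment 1, at adjusted p-values of 0.0644 to 0.137. In experiment 1 alone they were at 6.27 and 6.20.

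Neural crest and surface ectoderm are the ectodermal neighbours of the neural plate. Of the neural crest list 12.5% rose and 12.5% fell, against 6.49% and 5.83% of all tested genes. Of 8 neural crest genes 1 rose, *Sox9* (52.2, 64.3 and 65.8 CPM in KO, against 22.6, 24.1 and 33.3 CPM in WT, 1.20, SE 0.11), which heart, gut and cartilage progenitors also express, and 1 fell, *Ednrb* (1.03, 1.39 and 0.573 CPM in KO, against 9.31, 8.21 and 12.01 CPM in WT, -3.23, SE 0.33). Of 9 surface ectoderm genes 3 rose and 2 fell (33.3% and 22.2%). With any 1 library left out 1 or 2 rose. *Krt15* (1.15) lost its call in each of these 6 fits, at adjusted p-values of 0.0622 to 0.157. *Grhl3* (-1.54, SE 0.25) and *Tfap2c* (-1.49, SE 0.27) fell, and of those that rose *Grhl2* (1.08, SE 0.22), an epithelial factor, was at 0.76 in experiment 1 alone, where 1 member rose.

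The lowest log2 fold changes among well measured genes, apart from those already given, belonged to *Tpm3-rs7* (1.44, 1.15 and 0.860 CPM in KO, against 105, 104 and 116 CPM in WT, -6.51, SE 0.14), whose reads are shared with a near-identical tropomyosin gene so that its level is uncertain, to *Dcc* and to *Rfx4*. *Dcc*, an axon guidance receptor, was at 0.137, 0.0606 and 0.765 CPM in KO, against 11.5, 10.3 and 13.1 CPM in WT (-5.40, SE 0.47). *Rfx4*, a factor of neural tube patterning, was at 0.0684, 0.667 and 0.765 CPM in KO, against 11.5, 15.4 and 36.02 CPM in WT (-5.28, SE 0.40). With *Fezf2*, *Pax5*, *Wnt1*, *Wnt8b* and *Hes3* these were the 8 lowest. Among the 8 highest were *Nkx2-5*, *Gata5*, *Rgs5*, *Ttn*, *Isl1*, *Hand2* and *Pgam2*.

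The KO libraries of the 2 experiments differed in the mesoderm genes they held. In experiment 2 KO1 had less *Hand1*, *Msx1*, *Msx2*, *Tbx3* and *Tbx2* than the KO libraries of experiment 1, at log2 ratios (CPM plus 0.5) of -2.94, -4.12, -3.51, -3.28 and -2.58, and less *Gata6* (-1.68) and *Eomes* (-2.30). It had more *Alx1* (2.07), *Tbx1* (1.95), *Pax9* (1.61) and *Six3* (2.10), genes of head and pharyngeal tissue. Among the endoderm factors *Sox17* was level (-0.09). Some of these shifts were shared by WT cells. Of the genes with WT values given above, WT7 of experiment 2 also had more *Alx1* and less *Msx2* and *Tbx3* than the WT libraries of experiment 1. For *Hand1*, *Gata6*, *Eomes* and *Six3* the WT shift went the other way. KO1 was sequenced in both experiments and was at 85.5 CPM of *Hand1* in experiment 1, against 9.75 CPM in experiment 2, so the gap was present within 1 line. *Msx1* did not pass on day 5 (1.51, SE 0.56). With 1 KO library in experiment 2 these differences carry no test. Of the 1056 genes that rose 1053 were also higher in KO1 than in WT7 of experiment 2, and of the 949 that fell 947 were lower. Since these libraries entered the fit, this is a description of the called genes. The median log2 ratio, KO over WT, of the risen genes was 1.66 in experiment 1 and 1.39 in experiment 2, and that of the fallen genes was -1.38 and -1.37.

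**Figure D4:**
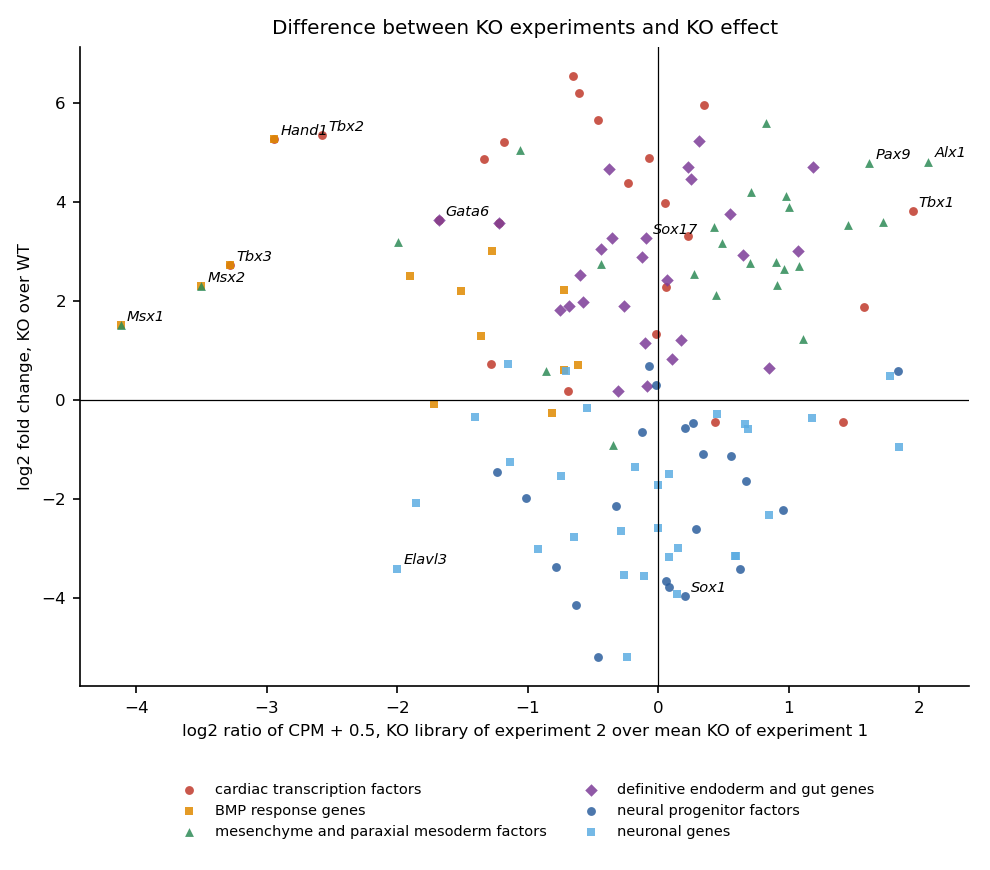
Log2 fold change between KO and WT (y axis) against the log2 ratio of CPM plus 0.5 between the KO library of experiment 2 and the mean of the KO libraries of experiment 1 (x axis), for the tested members of 6 lists. BMP response genes such as *Msx1* and *Tbx3* lie far to the left, head mesenchyme factors such as *Alx1* to the right, and most endoderm genes near 0.

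The KO effect on day 5 was then compared with that on earlier days, in 1 model over all 36 libraries, so CPM values in the following paragraphs are scaled over all of them. Against day 4, measured in 2 KO and 2 WT libraries of experiment 2, the effect differed for 499 of 21601 genes (2.31%), being higher on day 5 for 344 (1.59%) and lower for 155 (0.718%). The count ran from 294 to 706 with 1 library left out, at 294 without KO15 and 295 without WT34 of day 4 and at 706 without WT7 of experiment 2 on day 5. Against day 3, with 4 KO and 4 WT libraries, it differed for 2036 genes (9.43%), higher for 1118 (5.18%) and lower for 918 (4.25%). Day 4 came from experiment 2 alone, while most day 5 libraries came from experiment 1. The model gave both genotypes the same shift between experiments. A KO effect that differs between experiments therefore cannot be told apart from a difference between days 4 and 5.

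The KO effect on many neural genes was larger in size on day 5 than on day 3. *Sox1* averaged 4.48 ± 1.57 CPM in KO cells, against 74.2 ± 29.8 CPM in WT cells, on day 5 (SD, n = 3 each), and 1.29 ± 0.647 CPM in KO cells, against 4.71 ± 1.42 CPM in WT cells, on day 3 (n = 4 each), and its KO effect differed by -2.20 (SE 0.53, adjusted p = 0.00337). *Pax6* differed by -1.59 (SE 0.50, adjusted p = 0.0219) and *En1* by -4.32 (SE 1.05, adjusted p = 0.00351). Without KO15 of experiment 2 on day 3 their adjusted p-values were 0.0704 and 0.0532, and *Pax6* was at 0.079 without KO15 of day 5. *En1* was also the 1 gene of the 12 followed whose effect differed from day 4, by 3.12 (SE 0.85, adjusted p = 0.0347), with 1.45 ± 0.0393 CPM in KO on day 5 and 0.171 ± 0.242 CPM on day 4, against 40.8 ± 24.9 and 40.7 ± 14.7 CPM in WT. That call was lost without KO1, KO15, WT7 or WT34 of experiment 1 on day 5, without KO15 on day 4 and without WT7 on day 4, at adjusted p-values of 0.051 to 0.257. Of 22 neural progenitor factors the effect was lower on day 5 than on day 3 for 13 and higher for 1, with medians of -2.05 on day 5 and -0.52 on day 3. Over all genes it was lower for 4.25% and higher for 5.18%. *Tubb3* differed by -0.80 (SE 0.28, adjusted p = 0.0385), under the threshold of size.

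For many streak genes the KO effect was smaller on day 5 than on day 3. *T* averaged 113 ± 26.3 CPM in KO cells, against 32.6 ± 40.9 CPM in WT cells, on day 5, and 206 ± 12.6 CPM in KO cells, against 3.12 ± 1.36 CPM in WT cells, on day 3, so its effect differed by -4.15 (SE 0.61, adjusted p = 1.4e-05). The difference was smaller for *Eomes*, at -2.31 (SE 0.58, adjusted p = 0.0044), and for *Foxa2*, at -2.01 (SE 0.48, adjusted p = 0.00276). Neither held without WT7 of experiment 2 on day 5, with differences of -1.22 (adjusted p = 0.13) and -0.75 (adjusted p = 0.136). Of 20 streak genes the effect was lower on day 5 than on day 3 for 12 and higher for none. Over all genes it was lower for 4.25%.

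For most endoderm and heart genes the KO effect was larger on day 5 than on day 3: it was higher for 19 of 29 endoderm genes and 18 of 23 cardiac factors. Over all genes it was higher for 5.18%. *Sox17* had a KO effect of 3.32 on day 5, 3.43 on day 4 and -0.001 on day 3, a difference of 3.32 (SE 0.56, adjusted p = 8.15e-05) from day 3. *Gata4* differed from day 3 by 4.07 (SE 0.66, adjusted p = 5.42e-05), *Hand1* by 5.81 (SE 1.00, adjusted p = 0.000129), *Myl7* by 5.30 (SE 0.66, adjusted p = 1.56e-06) and *Tnnt2* by 4.62 (SE 0.77, adjusted p = 7.1e-05). On day 4 the mean of *Myl7* in KO was 8.20 ± 1.17 CPM while *Tnnt2* was still at 0.760 ± 0.0107 CPM and *Hand1* at 1.84 ± 0.0034 CPM, against 0.579 ± 0.0216, 0.395 ± 0.139 and 0.141 ± 0.199 CPM in WT (SD, n = 2 each). On day 5 these 3 genes averaged 26.5 ± 12.5, 22.6 ± 8.39 and 54.1 ± 39.1 CPM in KO, against 0.683 ± 0.525, 0.978 ± 0.0914 and 1.04 ± 1.08 CPM in WT. Against day 4 the effect of *Myl7* differed by 1.41 (SE 0.75, adjusted p = 0.378), of *Tnnt2* by 3.62 (SE 1.06, adjusted p = 0.0521) and of *Hand1* by 1.98 (SE 1.85, adjusted p = 0.695), and none of the 3 passed. *Tnnt2* passed without KO1 of day 5 in experiment 2 (3.94, adjusted p = 0.0372). By list, the effect was higher on day 5 than on day 4 for 7 of 23 cardiac factors and 7 of 27 sarcomere and heart muscle genes, and lower for none. Over all genes it was higher for 1.59% and lower for 0.718%. It was higher for 1 and lower for 1 of 29 endoderm genes. The median effect of the cardiac factors was 4.01 on day 5, 1.85 on day 4 and -0.17 on day 3, and that of the endoderm genes 2.87, 1.81 and -0.002. The day 4 values are from experiment 2 alone. In that experiment *Gata4* on day 5 was at 37.7 CPM in KO1, against 12.5 CPM in WT7, and *Hand1* at 9.56, against 2.29 CPM. *Myl7* was at 15.6, against 1.28 CPM, and *Tnnt2* at 17.1, against 0.944 CPM. *Gata4* on day 4 averaged 56.4 CPM in KO, against 15.6 CPM in WT.

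**Figure D5:**
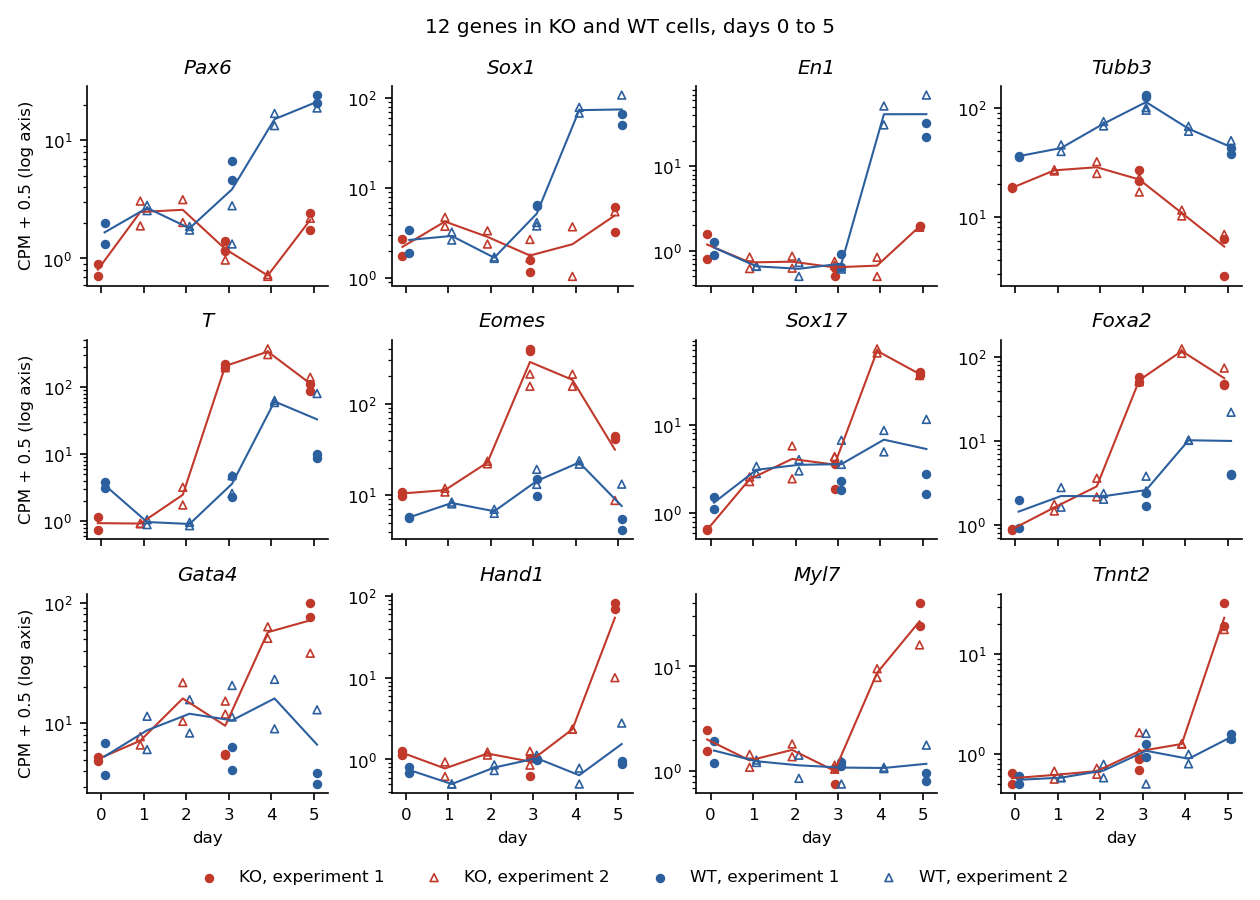
CPM plus 0.5 (log axis) of 12 genes by day of differentiation, from day 0 to day 5, in KO (red) and WT (blue) libraries, with lines through the group means. Circles are experiment 1 and triangles experiment 2. *T* and *Eomes* are highest in KO on days 3 and 4, and *Hand1*, *Myl7* and *Tnnt2* are highest on day 5.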

How the data were processed

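Bulk RNA-seq of the 6 day 5 libraries of KO1, KO15, WT7 and WT34 was analysed. According to the submitters' processing notes and the study's methods, the authors trimmed 50-base single-end reads of a stranded poly(A) library with Trim Galore 0.6.4 and quantified them with Salmon 0.14.1 on GENCODE mouse transcripts (mm10), and deposited expected counts per gene, a column for each library. The TPM values deposited beside them were used in 1 alternative and for *Tet1*. Each table held 54281 genes. Salmon shares reads among similar transcripts, so close paralogs are uncertain. Of the gene identifiers 99.7% had a position in the M21 annotation, and promoters were taken from RefSeq.

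The expected counts, once rounded, were filtered with edgeR 4.0.16 in R 4.3.3 (minimum count 10, minimum total 15). TMM factors were used, and experiment entered as a block beside genotype, with 3 residual degrees of freedom and Benjamini-Hochberg adjustment over all 16276 genes. The comparison with days 3 and 4 used all 36 libraries (19 residual degrees of freedom, 21601 genes). Bounds use 3 counts over a group, and intervals cover counting error only. No list median changed when genes with 3 counts or fewer in a group were set to their bound. The script was tested on simulated data. The choices varied were the tool (DESeq2 1.42.0), the scaling (RLE), the filter, a log2 threshold of 1.5, no experiment term, experiment 1 alone, limma 3.58.1 on log2(TPM + 1), 1 summed library per line, the model over all libraries, and each library left out. Experiment 2 alone was added after seeing the data and, with 1 library per genotype, gave ratios with no test.

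The 36 gene lists come from general knowledge and 12 further lists are atlas lineage markers used by the study. The members and lists were chosen with earlier results of these data known. Genes were named by rule: 36 markers, the 8 highest and the 8 lowest fold changes of called genes with separate libraries and at least 5 CPM in the higher group (predicted genes and pseudogenes left out), up to 4 members of smallest p per list and any member against the direction of its list, and 12 genes for the comparison of days. Other list members given in the text (such as *Wnt5a*, *Bmp5*, *Lgr5*, *H19*, *Fn1* and *Msx2*) were chosen after their values were seen. Some genes that the rule selects are not reported here.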

Additional observations from a re-analysis of the deposited data

Results flagged for a closer look

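Of the 12 genes followed over time, 11 had a KO effect that differed between day 5 and day 3 or day 4 past the threshold, by the edgeR test of the difference itself. Against day 3 the effect on day 5 was lower for *Pax6* (-1.59), *Sox1* (-2.20), *En1* (-4.32), *T* (-4.15), *Eomes* (-2.31) and *Foxa2* (-2.01), on the log2 scale. It was higher for *Sox17* (3.32), *Gata4* (4.07), *Hand1* (5.81), *Myl7* (5.30) and *Tnnt2* (4.62). For *En1* the effect was also 3.12 higher on day 5 than on day 4. The day 3 calls of *Eomes* and *Foxa2* were lost without WT7 of experiment 2 on day 5. Those of *Pax6* and *En1* were lost without KO15 of experiment 2 on day 3, and that of *Pax6* also without KO15 of day 5. The day 4 call of *En1* was lost without any 1 of several libraries, as given above. Groups of 3 libraries are too small for a test of single outlying libraries.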

How the results depend on the processing

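Replicates 1 and 2 of day 5 are KO1 and KO15 or WT7 and WT34 of experiment 1, and replicate 3 is KO1 or WT7 of experiment 2. The count of 2005 changed genes was 1244 at a log2 threshold of 1.5 and 800 with limma on log2(TPM + 1), and 1612 to 2235 with 1 library left out. With no experiment term either it was 747 to 1764 with 1 library left out (767 without KO and 788 without WT replicate 1, 894 without KO and 747 without WT replicate 2). It was 1966 with DESeq2, 2009 with RLE size factors, 2203 without the filter, 1427 without the experiment term, 2230 in experiment 1 alone, 1663 with 1 summed library per line and 2532 in the model over all libraries. DESeq2 shared 1915 of its calls with edgeR, in the same direction, and limma 710. The count of genes whose KO effect differed between days 5 and 4 (499) was 331 at a threshold of 1.5, 807 without the filter and 294 to 706 with 1 library left out. Between days 5 and 3 (2036) it was 1309 at a threshold of 1.5 and 1834 to 2266 with 1 library left out. The cause of these shifts was not tested, other than that the stricter threshold calls fewer genes by construction. Of the 165 named genes, 164 kept their side of the threshold with DESeq2 and 165 with RLE size factors, while 32 lost their call without the experiment term, 28 at a threshold of 1.5, 9 with summed lines, 5 to 10 with 1 library left out, and 16 to 75 with 1 library left out and no experiment term. With limma 23 of the 130 named genes it tested lost their call. Signs turned for these values: without the experiment term *Onecut2* was at -0.38 and *Cubn* at -0.17 without KO day 5 replicate 3, and *Cdh2* at -0.012 without WT day 5 replicate 1. With 1 library left out the difference between days 5 and 4 ran from -0.62 to 0.80 for *Sox17*, -0.90 to 1.11 for *T*, -1.25 to 0.25 for *Foxa2* and -2.27 to 3.49 for *Hand1*. *Sox17* was at 0.45 without KO day 5 replicate 3, 0.25 without WT day 4 replicate 1 and 0.80 without WT day 5 replicate 3, the fit in which *T* was at 1.11 (adjusted p = 0.0446) and *Foxa2* at 0.25, and *Hand1* was at -2.27 without WT day 4 replicate 2. No paired analysis was possible because the labels give line names and no replicate number that links a KO with a WT library. Depth limits genes under about 10 counts in a library, such as most Hox genes. Each genotype rests on 2 lines, and 1 library per genotype carries experiment 2.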

Other observations

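Markers of embryonic lineages, drawn by the study from an atlas, were counted in the same way. Of 79 mesoderm markers 35 rose and 1 fell in KO cells (44.3% rose, against 6.49% of all tested genes), of 113 extraembryonic mesoderm markers 47 rose and 2 fell, and of 124 endoderm markers 43 rose and 2 fell. The ectoderm list had 15 of 49 lower and 3 higher, and the epiblast list 15 of 73 lower and 4 higher. Primitive streak markers were divided, with 6 of 38 higher and 9 lower. The list of neuromesodermal progenitors (NMP) was divided too, with 10 of 89 higher and 15 lower. Among 83 primordial germ cell markers 20 rose and 4 fell. Angioblast and extraembryonic ectoderm markers lay nearer to the background, with 11.2% and 9.58% higher and 4.67% and 10.3% lower, and of 456 visceral endoderm markers 13.4% were higher and 3.51% lower. The non-neural ectoderm list had 12 of 53 higher and 9 lower.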
